A study of Arabidopsis thaliana with 2 samples.

Results

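The 10 genes described here belong to the core response of Arabidopsis to low oxygen, the group of genes that rises in most organs and cell types when oxygen falls. Their transcripts were measured in seedlings that express parts of a synthetic oxygen sensor. The genes were chosen by locus: CML38 (AT1G76650), AT4G10270, AT3G10040 (HRA1), AT4G27450, AT3G27220, AT4G24110, AT5G10040, AT1G33055, AT3G10020 and AT5G66985. Each was represented by 1 probe set that names that gene alone, among 13286 loci with such a probe set and 22746 gene probe sets on the array. No probe set naming several genes included any of the 10.

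The triple expressor carries 3 transgene products, a HIF fusion labelled AD-HIFCOOD, a pVHL fusion labelled GBD-pVHL, and PHD3. The double expressor carries the fusions AD-HIFCOOD and GBD-pVHL without PHD3. Both were Col-0 seedlings, genotyped one by one by PCR, sampled after 7 days on medium with sucrose and given no treatment, with 1 array for each genotype. Both groups therefore carry sensor parts, and a seedling without transgenes was not analysed here. The promoters of the transgenes, the number of independent lines and the number of seedlings used for each array were not stated in the sources used here. With 1 array per genotype there is no replicate spread and no test, and every difference below compares these 2 arrays.

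In plants, low oxygen is sensed through group VII ethylene response factors, transcription factors that are oxidised by plant cysteine oxidases and then degraded by the N-degron pathway when oxygen is present. When oxygen falls, these factors persist and switch on fermentation enzymes, regulators that limit the response, and many small proteins whose function is not known. The parts of the sensor come from the separate animal system, in which a prolyl hydroxylase such as PHD3 uses oxygen to modify HIF so that pVHL can bind it. Measuring the plant's own hypoxia genes in the 2 genotypes describes how far their basal transcript levels differed between these 2 samples of untreated seedlings. An effect of PHD3 cannot be told apart from other differences between the 2 samples, such as line or array.

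All 10 genes had a higher value in the triple than in the double expressor, by a median of 0.26 on the log2 scale (1.19-fold). Over all gene probe sets the median difference was 0, and 49.5% were higher in the triple expressor. CML38 and AT4G10270 were at least 1.5-fold higher, a size reached by 1.25% of all gene probe sets, and none of the 10 was 2-fold higher, a size reached by 0.127%. The other 8 lay between 0.19 and 0.52 on the log2 scale. These genes were listed with earlier results from the same arrays known, so their common direction is a description and not independent evidence of a shift in the hypoxia response. A wider set of hypoxia-induced genes, given further on, went both ways.

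The deposited values are RMA values on the log2 scale, which summarise several probes into 1 signal for each probe set. Probe sets differ in how strongly they bind, so each difference is taken between arrays within 1 gene. The common floor and the summed marker signals do set values of several probe sets side by side, and binding strength can affect both. A floor was set at 5.71, the 40th percentile of all values, and for 61.1% of gene probe sets the brighter array reached it. Of the 10 genes, 4 reached it on both arrays, CML38, AT4G27450, AT3G10020 and AT5G66985, and 6 lay below it on both. CML38 in the double expressor, at 5.72, was the value just above the floor, and AT3G27220 in the triple expressor, at 5.10, was the nearest below it. Differences below the floor rest on dim signals, where a change in transcript can be compressed and where background takes a larger share of the signal.

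**Figure D1:**
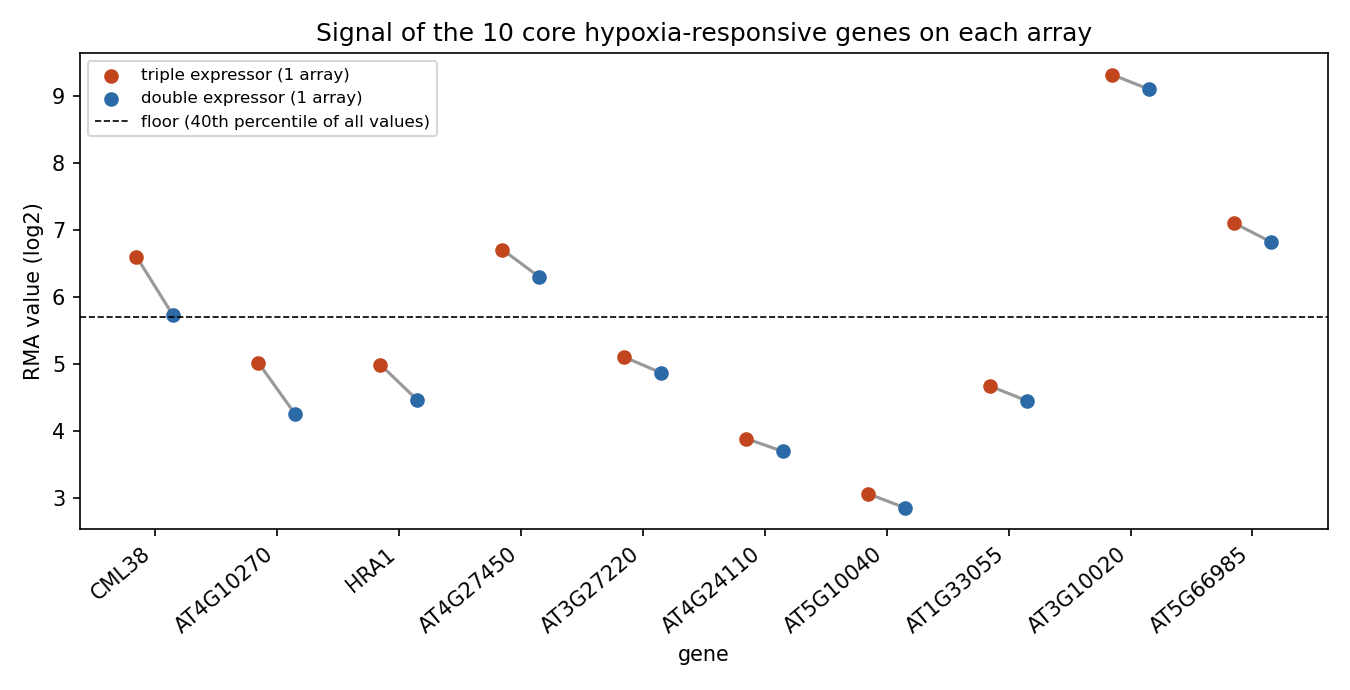
RMA value (log2) of each of the 10 core hypoxia-responsive genes on the triple expressor array (left point of each pair) and the double expressor array (right point), with the floor of 5.71 as a dashed line; each point is 1 array and heights are not comparable between genes. The triple expressor point is the higher of each pair, and 6 pairs lie wholly below the floor.

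The first genes have roles in signalling and in control of the response. CML38 encodes a calmodulin-like calcium sensor found in cytoplasmic granules that form under low oxygen. Its value was 6.60 in the triple expressor and 5.72 in the double expressor, a difference of 0.88, or 1.84-fold. This was the widest gap of the 10, and both values lay at or above the floor. HRA1 encodes a trihelix transcription factor that is itself induced by low oxygen and restrains the group VII factor RAP2.12. Its value was 4.99 in the triple expressor and 4.46 in the double expressor, a difference of 0.52, or 1.44-fold, with both values below the floor.

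AT4G10270 encodes a small protein of the wound-responsive family. Its value was 5.02 in the triple expressor and 4.25 in the double expressor, a difference of 0.76, or 1.70-fold. It was the second gene past 1.5-fold, and both values lay below the floor. AT4G27450 encodes a protein annotated as aluminium-induced, with YGL and LRDR motifs. Its value was 6.70 in the triple expressor and 6.30 in the double expressor, a difference of 0.40, or 1.32-fold, with both values above the floor. AT3G27220 encodes a kelch repeat protein. Its value was 5.10 in the triple expressor and 4.87 in the double expressor, a difference of 0.23, or 1.18-fold.

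The other 5 genes encode proteins with no established function. Of these, AT5G66985 and AT3G10020 lay above the floor. AT5G66985 had a value of 7.10 in the triple expressor and 6.82 in the double expressor, a difference of 0.28, or 1.21-fold. AT3G10020 had a value of 9.31 in the triple expressor and 9.10 in the double expressor, a difference of 0.22, or 1.16-fold. These are small gaps, under 1.5-fold, on probe sets with signal above the floor.

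AT1G33055, AT4G24110 and AT5G10040 gave dim signals on both arrays. AT1G33055 had a value of 4.67 in the triple expressor and 4.45 in the double expressor, a difference of 0.22. AT4G24110 had a value of 3.88 in the triple expressor and 3.69 in the double expressor, a difference of 0.19, the narrowest gap of the 10. AT5G10040 had a value of 3.06 in the triple expressor and 2.85 in the double expressor, a difference of 0.21. On the unlogged scale AT5G10040 stood at 8.34 units in the triple expressor and 7.22 units in the double expressor, so its log2 difference rests on a gap of 1.12 units of signal.

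How far each difference stood from the bulk of the array was described by the central 90% of differences among gene probe sets whose mean value lay within 0.5 of the gene's own. Of the 10 genes, 3 lay above that range, against 4.99% of all gene probe sets, and 7 lay inside it. Because the 10 were listed with earlier results from these arrays known, that count is a description and not evidence of enrichment. For CML38 the range ran from -0.36 to 0.50 over 2847 probe sets, and its difference of 0.88 lay well above it. For AT4G10270 it ran from -0.44 to 0.48, and the difference of 0.76 also lay above it. HRA1, at 0.52, lay just above a range of -0.44 to 0.48, and AT4G27450, at 0.40, just inside one of -0.35 to 0.44. AT5G10040, at 0.21, lay inside a range of -0.32 to 0.24. The range describes probe sets on these 2 arrays and holds no variation between plants.

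**Figure D2:**
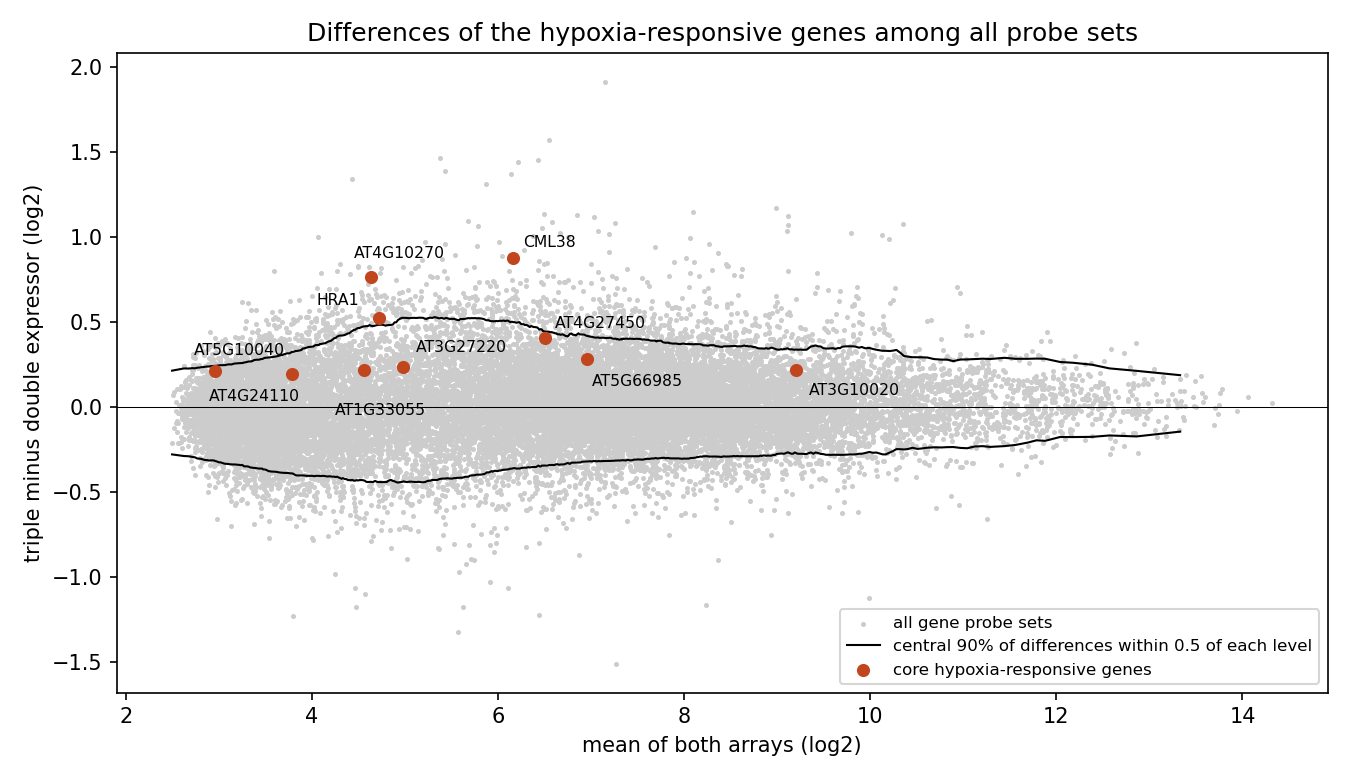
Difference of the triple minus the double expressor (log2) against the mean of both arrays (log2) for all 22746 gene probe sets (grey) and the 10 core hypoxia-responsive genes (orange); black lines bound the central 90% of differences of probe sets within 0.5 of each level. CML38, AT4G10270 and HRA1 lie above the upper line, and the other 7 lie between the lines on the upper side of 0.

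The size of the differences depended on how low signals were treated. With 32 added to the unlogged values before taking log2, which damps ratios of dim probe sets, CML38 differed by 0.61, AT4G10270 by 0.33 and HRA1 by 0.24. CML38 was then the only gene past 1.5-fold, a size reached by 0.387% of all gene probe sets on that scale. AT4G27450 differed by 0.30, AT5G66985 by 0.22 and AT3G10020 by 0.21. The dim genes AT3G27220, AT1G33055, AT4G24110 and AT5G10040 differed by 0.12, 0.09, 0.06 and 0.04. Centring each array on its median shifted every difference by -0.03, less than the narrowest gap of the 10. All 10 thus stayed above 0, against 43.8% of all gene probe sets. After lowess centring all 10 were above 0 too, against 50% of all gene probe sets.

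**Figure D3:**
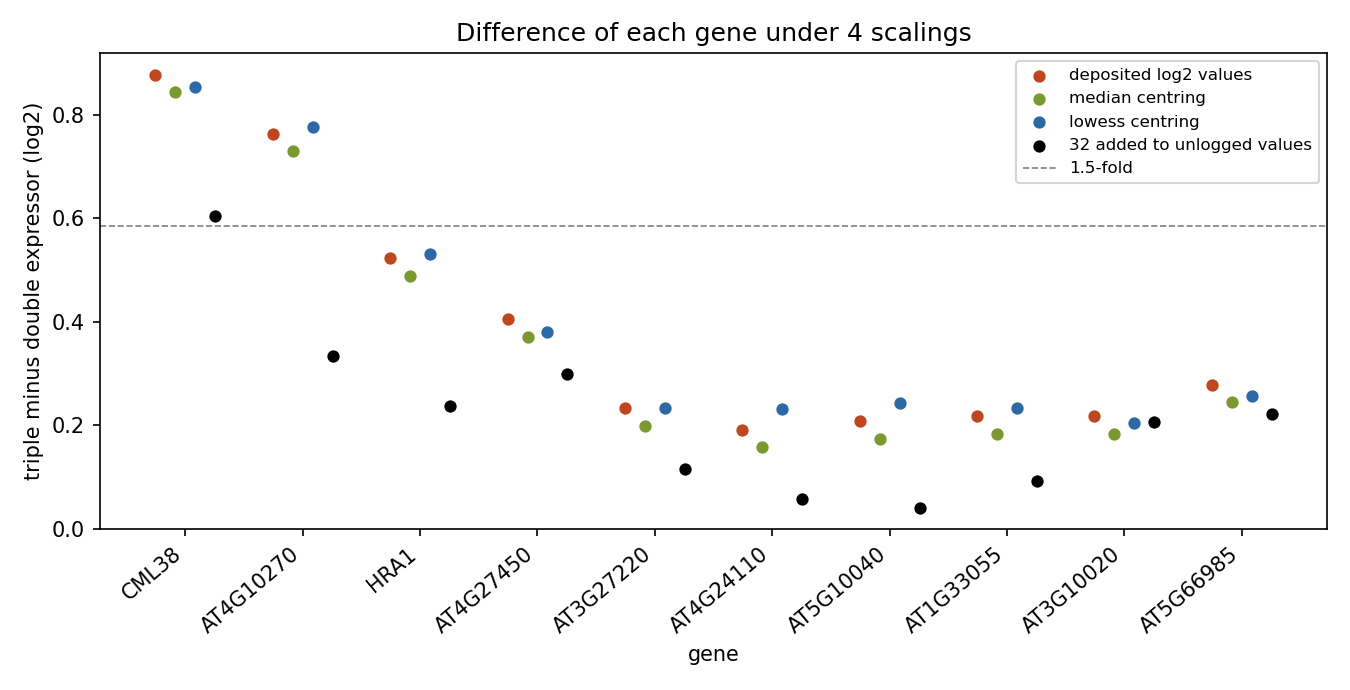
Difference of the triple minus the double expressor (log2) for each of the 10 genes from the deposited values, after median centring, after lowess centring, and with 32 added to the unlogged values; the dashed line marks 1.5-fold. CML38 stays above the line in all 4, AT4G10270 in all but the last, where it is at 0.33, and no point is below 0.

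Other genes induced by low oxygen were taken from a list of 42, of which 16 had a probe set of their own. Of these 16, 9 were higher in the triple expressor and 7 were lower, against 49.5% of all gene probe sets higher. Their median difference was 0.05 (1.03-fold). Over the 10 of them whose brighter array reached the floor it was 0.15, beside 0.34 over the 4 core genes above the floor. None was 1.5-fold higher or 1.5-fold lower, the second a size reached by 0.615% of all gene probe sets, and all 16 lay inside the central 90% of differences at their own level. Put together with the 10 core genes, 19 of 26 were higher and 7 lower, with a median of 0.20 (1.15-fold), and the only ones at least 1.5-fold apart were CML38 and AT4G10270. Since the 10 were set apart with results known, neither the count of 10 nor that of 16 is free of that choice, and the pooled median is carried by the 10.

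Among the 9 that were higher, AT5G42200 had the widest gap, at 6.56 in the triple expressor and 6.16 in the double expressor, a difference of 0.40. AT1G72940, which encodes a TIR-NBS disease resistance protein, had 7.83 in the triple expressor and 7.54 in the double expressor. AT3G23170 had 6.20 in the triple expressor and 5.95 in the double expressor. These differences, 0.40, 0.29 and 0.24, are of the size seen for the middle of the 10 core genes. AT1G26270, a phosphatidylinositol kinase family gene, differed by 0.23, AT4G17670, of the DUF581 zinc finger family, by 0.17, and AT1G19530 by 0.15. AT3G03270 (HRU1), a universal stress protein gene, differed by 0.13, the GDSL lipase gene AT5G45960 by 0.05 and the leucine-rich repeat extensin gene AT2G15880 by 0.04.

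The 7 lower genes had differences between -0.18 and -0.05. AT2G17850, a rhodanese-like protein gene, had 3.62 in the triple expressor and 3.79 in the double expressor, a difference of -0.18. AT4G33560, which like AT4G10270 encodes a wound-responsive family protein, had 3.89 in the triple expressor and 3.99 in the double expressor, a difference of -0.10. AT4G10270 and AT4G33560 thus differed in sign, and other genes of that family were not searched for. AT5G26200, a mitochondrial carrier gene, differed by -0.14, AT1G74940, of the DUF581 family, by -0.13, the hydrolase family gene AT5G44730 by -0.09 and AT5G27760, a hypoxia-responsive family gene, by -0.05. PDC2, a pyruvate decarboxylase of ethanolic fermentation, had 9.36 in the triple expressor and 9.48 in the double expressor, a difference of -0.12.

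The measured genes of glycolysis and fermentation, the metabolic arm of the response, showed no common direction. Of 24 listed genes 6 were measured, with 3 higher, 3 lower, none past 1.5-fold and a median difference of 0.04. The higher genes were the pyruvate kinase gene AT5G56350 at 0.18, the glyceraldehyde-3-phosphate dehydrogenase gene GAPC2 at 0.12 and the lactate dehydrogenase gene AT4G17260 at 0.09. The lower genes were PDC2, the pyruvate kinase gene AT5G08570 at -0.10 and the triose phosphate isomerase gene TPI at -0.01. The oxygen sensing machinery itself comprises the group VII factors, the plant cysteine oxidases and the N-degron enzymes. Of its 15 listed genes none had a probe set naming that gene alone, so they were not analysed here. Probe sets naming several genes were not searched for them. The fermentation genes ADH1 and PDC1 and the sucrose synthase genes SUS1 and SUS4 were not analysed here either, so the metabolic arm was covered only in part. PDC2 is counted both in this list and among the other hypoxia-induced genes.

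**Figure D4:**
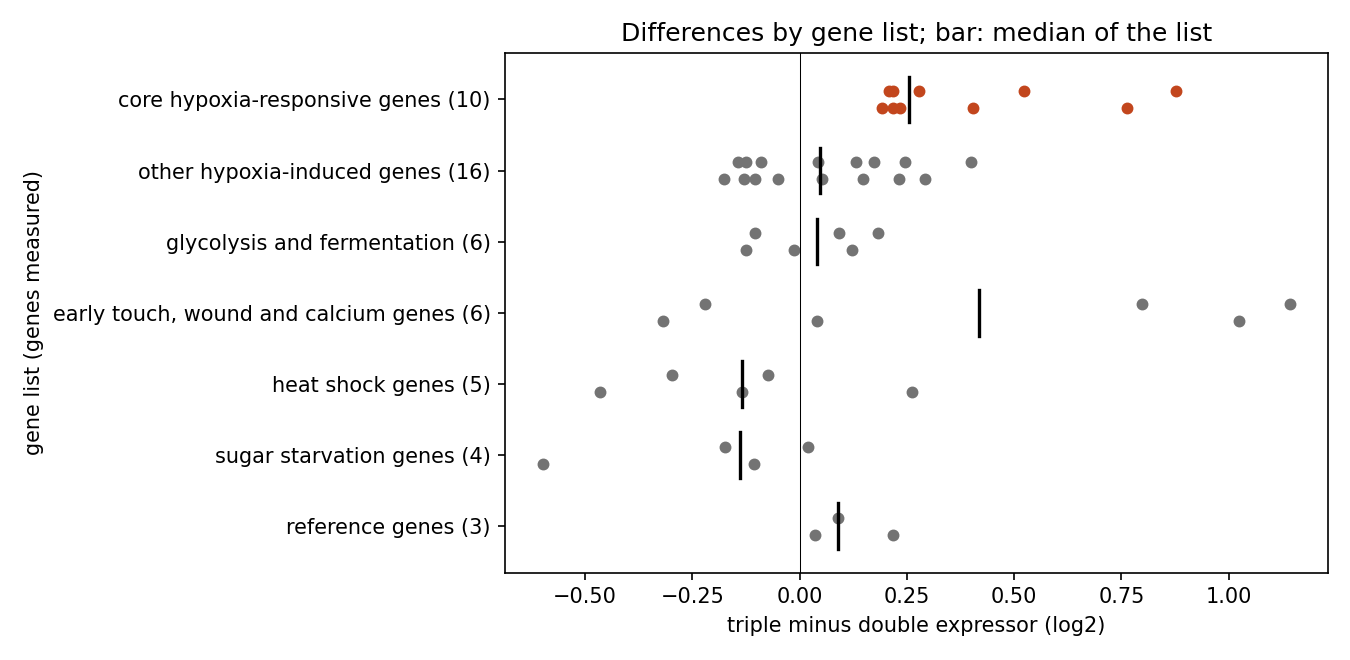
Difference of the triple minus the double expressor (log2) for every measured gene of 7 lists, with the number of genes in brackets and the median of each list as a bar; each point is 1 gene from 1 array per genotype. The 10 core genes (orange, median 0.26) lie right of 0, the other hypoxia-induced genes lie on both sides with a median of 0.05, and the early touch, wound and calcium genes reach furthest right, with 1.14 for STZ.

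CML38 is a calcium sensor gene also known to respond to wounding, and AT4G10270 belongs to a wound-responsive family, so genes of touch, wound and calcium responses were set beside them. Their list, like the others, was drawn up with earlier results from the same arrays known. Of 20 listed early touch, wound and calcium genes 6 were measured. Of the 6, 4 were higher, 2 were lower, and the median difference was 0.42. Of these, 3 were at least 1.5-fold higher, a size reached by 1.25% of all gene probe sets. STZ, a zinc finger repressor, was higher by 1.14, AT4G29780 by 1.02 and WRKY53, which encodes a transcription factor, by 0.80. The glutaredoxin gene GRX480 differed by -0.32, AT1G76640 by -0.22 and CML37 by 0.04. STZ, AT4G29780 and WRKY53 differed in the same direction as CML38 and AT4G10270, and their part in the result was not tested.

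Calmodulin-like genes named as such in the annotation were also compared with CML38. Of 6 such genes other than CML38, 5 were higher and 1 was lower, by a median of 0.18, against 49.5% of all gene probe sets higher. None was 1.5-fold higher, a size reached by 1.25% of all gene probe sets. CML23 had 4.13 in the triple expressor and 3.60 in the double expressor, CML42 had 7.89 in the triple expressor and 7.52 in the double expressor, and CML30 differed by 0.32. CML37 differed by only 0.04, CML43 by only 0.03 and CML41 by -0.19. CML23, CML37 and CML41 lay below the floor on both arrays. Genes that the annotation names by locus alone were not counted, whatever protein they encode. One of them, AT1G76640, is the gene next to CML38 on chromosome 1. It was lower, at 3.32 in the triple expressor and 3.54 in the double expressor.

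The positions of the 10 genes were used to see whether their chromosomal neighbours differed too. HRA1 and AT3G10020 lie 2 genes apart on chromosome 3 in the TAIR10.1 annotation. Between them lies AT3G10030, at 7.13 in the triple expressor and 7.10 in the double expressor, a difference of 0.03. Within 2 protein-coding genes on each side, 22 neighbours that are not among the 10 were measured, next to 9 of them. Of these neighbours 10 were higher and 12 lower, against 49.5% of all gene probe sets higher. Their differences had a median of -0.03 and a range from -0.37 to 0.63. Only 1 was at least 1.5-fold higher, AT4G24100, the gene beside AT4G24110, a size reached by 1.25% of all gene probe sets. The neighbours thus did not share a direction.

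Heat shock, sugar starvation and reference genes were compared in the same way. Of 5 measured heat shock genes, 1 was higher and 4 lower, with a median of -0.13 and differences of -0.47 for AT5G37670, -0.30 for ATHSP22.0, 0.26 for AT5G51440 and -0.13 for AT5G48570. Over the 1 heat shock gene above the floor the sign turned, since that gene was AT5G51440. Of 4 measured sugar starvation genes, 1 was higher and 3 lower, with a median of -0.14. They were AT2G05540 at -0.60, ATL8 at -0.17, IVD at -0.11 and MCCA at 0.02. The reference genes AT4G34270, AT2G28390 and PEX4 differed by 0.22, 0.09 and 0.04. The difference of AT4G34270 was as large as those of AT3G10020, AT1G33055 and AT5G10040, so gaps of about 0.2 on the log2 scale occurred between these arrays in a gene used as a stable reference.

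Markers of shoot and root gave signal on both arrays, as the label of whole seedlings implies. The 3 measured shoot markers, RCA, LHCB4.2 and PRK, had values from 12.02 to 13.83 in the triple expressor and 11.91 to 13.72 in the double expressor, with differences from -0.03 to 0.11. All 5 measured root markers, of 6 listed, were higher in the triple expressor, against 49.5% of all gene probe sets. They were PYK10, AT3G01190, AT4G26010 and the root hair expansin genes EXPA7 and EXPA18, so they do not describe root tissue as a whole. The differences of these 5 markers ran from 0.16 to 0.50 with a median of 0.40. Their summed unlogged signal was 9483 in the triple expressor and 8330 in the double expressor. Most of that sum came from PYK10, at 13.02 in the triple expressor and 12.86 in the double expressor. Its difference of 0.16 was the narrowest of the 5, so the sum mainly describes that gene. The summed signal of the shoot markers was 25352 in the triple expressor and 24175 in the double expressor. In whole seedlings a different share of root tissue or root hairs and a different RNA level per cell cannot be told apart. The part of root markers in the differences of the 10 genes was not tested. The 3 measured seed markers, of 5 listed, stayed below the floor on both arrays, 1 higher and 2 lower, with a summed unlogged signal of 52.6 in the triple expressor and 68.3 in the double expressor. Among them ICL, a glyoxylate cycle gene, had 4.66 in the triple expressor and 5.37 in the double expressor, a difference of -0.71, the widest of any marker measured. No pollen marker was measured. Of 24 bacterial and phage control probe sets 16 were higher and 8 lower on the triple expressor array, by a median of 0.06 and at most 0.37 in size.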

How the data were processed

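Biotin-labelled RNA was hybridised to Affymetrix arrays, 1 per genotype. Per the submitters' processing notes the authors used RMA, in a version not stated in the sources used here, to make the deposited log2 values. The log2 scale was read from the range of the values, 2.39 to 14.3. RMA equalises the distribution of probe intensities before summarising them, which removes much of any shift common to most genes; the medians of the summarised values were 6.54 in the triple and 6.51 in the double expressor. Of 22810 probe sets, 64 controls were left out of all counts. Names came from the platform annotation through gene identifiers to RefSeq's TAIR10.1 gene table: 13513 probe sets named 1 gene, 13436 of them with a locus, 503 named several, and 8730 are unnamed here.

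Differences are triple minus double expressor, using the probe set with the highest mean per locus. No model was fitted. The 10 genes, the lists and the alternatives were chosen with earlier results of these data known. The 10 genes, every measured gene of the hypoxia, oxygen sensing and glycolysis lists, and up to 4 genes of each other list by size of difference were named; the remaining touch genes, the calmodulin-like genes and the chromosomal neighbours were added after their values were seen. Lowess used a span of 0.3. The steps were run on simulated data. The precision of the differences between these 2 arrays was not tested. The software was numpy 2.4.6, pandas 2.3.3, statsmodels 0.14.6 and matplotlib 3.10.9 under Python 3.11.15. The number of arrays limits the precision.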

Additional observations from a re-analysis of the deposited data

How the results depend on the processing

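The median difference of the 10 genes was 0.26 and ranged from 0.21 to 0.34 under median centring (0.22), lowess centring (0.25), the damped scale with 32 added (0.21) and the 4 genes above the floor (0.34). All 10 were higher under both centrings. Median centring shifted each difference by -0.03, less than the narrowest of 0.19, so it could not turn a sign. The damped scale cannot turn a sign either, and the floor only removes genes. The count past 1.5-fold, 2, was 1 on the damped scale, 1 above the floor and 0 at a 2-fold threshold; that above the floor, 4, was 1 with a floor at the 60th percentile. These follow from how the alternatives are built. Of 50 recomputed differences of single genes, none turned sign, but the shifts of both centrings were too small to turn one. Lowess centring moved the narrowest, that of AT4G24110, from 0.19 to 0.23. Of the 50, 3 moved by more than the SD of differences at their level, all on the damped scale. These were CML38 to 0.61, AT4G10270 to 0.33 and HRA1 (AT3G10040) to 0.24. Each of the 10 has 1 probe set, none named for cross-hybridisation, so averaging probe sets or leaving such sets out changed nothing by construction. Of 36 recomputed medians of the other lists, 2 moved by more than that SD, both over genes above the floor: the touch list to 0.91 and the heat shock list to 0.26, the only one to turn sign. No replicate could be left out. No paired analysis was possible because the genotypes have 1 array each.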
